A study of Mus musculus with 3 samples.

Results

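Macrophages sorted from mouse backskin at the first of 3 ages within one telogen, day 42, were compared with the same population at both later ages, day 55 and day 69. The arrays are called P42, P55 and P69 by the age under which they were deposited. The genes described are those that differed from P42 in the same direction on both later arrays, by at least 2-fold on each. Because both later arrays enter alike, the comparison stays the same whichever of them is mid or late telogen. Of 55681 probes, 30806 were well above background on all 3 arrays and were compared. They stood for 13094 of the 19752 genes that could be named, each gene by its brightest probe. Of these genes, 2320 (17.7%) were at least 2-fold higher and 1064 (8.13%) at least 2-fold lower on both later arrays.

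Hair follicles cycle through growth (anagen), regression (catagen) and rest (telogen), and in telogen the stem cells of the follicle are quiescent. Macrophages that live in the skin lie around follicles, take up debris and secrete lipid mediators, chemokines and growth factors. The study asked how the transcripts of these macrophages differ between early telogen and the stages that precede a new anagen. Cells that carried CD11b and F4/80 but not Gr1 were isolated by flow cytometry from mice of CD1 genetic background, for which the labels name no treatment. RNA of 3 littermates was pooled at each age, amplified as a whole transcriptome from amounts of a nanogram or less, labeled with Cy3 and hybridized to 1 array. All 3 arrays were on 1 slide. With 1 pooled sample per age, no p-value could be given, and age, pool and array cannot be told apart. The labels give day 42 for the early sample and the methods of the study day 44.

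A level below is log2 of the processed signal minus the 75th percentile of its array, and a difference is the later level minus that at P42. A gene is called higher or lower where both differences pass 2-fold. Levels are compared between arrays for one gene and never between genes. Probes printed repeatedly on an array had a spot SD of 0.14, 0.12 and 0.12 (log2, at least 10 spots per probe) at P42, P55 and P69. This gives a spot error of 0.17 for the mean of both differences, which covers the array surface and not the spread between mice. The share of probes well above background was 71.4%, 59.6% and 68.7%, and no spot was saturated.

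Adgre1, Itgam and Csf1r, markers of the labelled cell type, were well above background on all arrays. The purity of the sorted cells was not tested. Adgre1, which encodes F4/80, had levels of 4.83, 5.51 and 5.15 at P42, P55 and P69. Itgam, which encodes CD11b, had levels of 8.95, 8.73 and 7.85, and Csf1r, the receptor for colony-stimulating factor 1, had 6.16, 6.87 and 6.32. None of these genes differed by 2-fold or more on both later arrays. Ly6g, which encodes the Gr1 antigen of neutrophils, was not analysed here. Of 20 macrophage markers, 19 were compared. None was called higher and 3 were called lower on both later arrays, namely C1qb, a subunit of complement C1q, Cd163, the receptor for haptoglobin and hemoglobin, and Ptprc, which encodes CD45. Cd163 went from 4.18 at P42 to 2.99 and 2.63. The median difference of the list was -0.34 against 0.33 for all genes compared, and it turned positive with the arrays scaled to their median or left unscaled. None of the 3 lower calls held under every setting of scaling. The summed linear level of the 19 markers was 1113, 1062 and 701.1 times the 75th percentile at P42, P55 and P69.

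Over all genes compared, 17.7% were at least 2-fold higher on both later arrays and 8.13% at least 2-fold lower. These shares are the background for each gene group below. At a threshold of 10-fold on each array, 57 genes were higher (0.435%) and 3 lower (0.0229%). Over probes, 11.7% were higher and 14.9% lower, and at 10-fold 0.221% and 0.0876%. At any size, 6766 genes were above P42 on both later arrays, 3961 below and 2367 above on one and below on the other. By 2-fold or more in opposite directions, 22 genes differed. Both differences subtract the same P42 array, which by construction favours the same direction. At the threshold, Dtnb lay just inside with differences of 1.15 and 1.0001, and Ctps just outside with 0.9998 and 1.08. For lower genes, Nhsl2 lay just inside with -1.21 and -1.0005, and Lypd6 just outside with -0.9992 and -1.81.

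**Figure D1:**
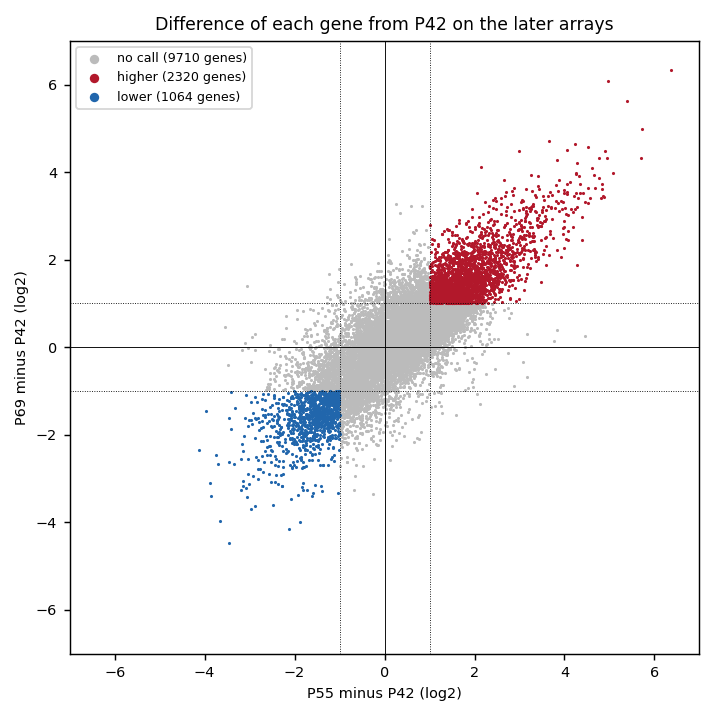
Each point is 1 of 13094 genes, with its log2 difference from P42 on the P55 array (x axis) and on the P69 array (y axis). Dotted lines mark 2-fold. The 2320 genes in red are higher and the 1064 in blue lower on both arrays, and the increases reach farther than the decreases. A decrease could go no lower than the background filter allowed on the later arrays. Both axes share the P42 array.

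The balance of higher and lower genes depended on how the arrays were scaled. Of all called genes, 68.6% were higher with the 75th percentile of all probes, 47.2% with the 75th percentile of the probes detected on all arrays, 92.9% with the median, 72.9% after quantile normalization and 97.3% without scaling. The median difference of all genes was 0.33, 0.04, 0.87, 0.35 and 1.05 under these settings. Differences are therefore best read against the median gene. Under all 5 other settings of scaling or background correction, 1242 of the 2320 higher genes and 116 of the 1064 lower genes kept their call. Of 3384 called genes, 246 had another compared probe that did not move the same way, and among the genes named below these were Ccl27a, Col16a1, Grhl2, Ier5, Lifr, Tgm3 and Tyro3.

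Several of the 15 largest increases were in genes known from the epidermis. Elovl4, which elongates the very long chain fatty acids of the skin barrier, had a level of -3.66 at P42 and 2.72 and 2.67 at P55 and P69. It was the gene with the largest smaller difference of both arrays, a mean of 81.6-fold. The lowest level well above background at P42 was -4.50, so folds of genes near it, here and below, are less certain. Lor, which encodes loricrin of the cornified envelope, went from -4.02 to 0.94 and 2.07. Cdh1, which encodes E-cadherin, went from -2.69 to 1.83 and 1.87. St14, the membrane protease matriptase, went from -3.46 to 2.25 and 0.86, and Pkp1, the desmosomal plakophilin, from -2.13 to 2.15 and 2.08. Defb6, a beta-defensin, went from -2.22 to 3.51 and 2.77. In each of these genes both later arrays were more than 10-fold above P42.

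Other genes among the 15 largest increases were not epidermal by their known role. Ninl, a centrosomal protein related to ninein, went from -4.14 to 1.26 and 1.48. Fcgbp, a mucus protein that binds the Fc part of IgG, went from 1.18 to 5.44 and 5.15. Comp, a matrix protein of cartilage and tendon, went from -1.66 to 3.41 and 2.31, and Angpt4, an angiopoietin, from -3.72 to 0.55 and 0.23. Slc36a2, Tspan8, Tmeff1, Capn3 and Dock5 completed the set, with mean differences of 4.28 to 4.63. These calls held under every setting of scaling, which follows in large part from the choice of the largest differences.

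The largest decreases were smaller and more mixed. Genes had to be well above background on every array, so no level under -4.04 at P55 or -5.10 at P69 could enter. The part of this limit in the smaller decreases was not tested. Ren1, the protease renin that cleaves angiotensinogen, had a level of 0.16 at P42 and of -3.31 and -4.33 at P55 and P69, a mean of 15.7-fold lower. A near-identical copy of this gene exists in some mouse strains, so the probe may not tell them apart. Trim71, an RNA-binding protein of early development, went from 7.38 to 4.23 and 4.20. Slc30a4, a zinc transporter, went from 3.44 to 0.46 and -0.25, and Wbscr25 from 8.56 to 5.88 and 5.92. Syce1, a protein of the synaptonemal complex of meiosis, went from 0.16 to -2.73 and -3.46. Gzme, a granzyme, went from -1.26 to -3.96 and -4.11. Olfr477, Olfr324, Vmn2r82, Psg28 and Clec2e belong to multigene families whose members share sequence, so their identity is uncertain. Zfp92, Adhfe1, Clca4a and Slc49a4 completed the set, with mean differences of -2.78 to -3.15. All 15 kept their call under every setting of scaling, again in large part because the largest differences were chosen.

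**Figure D2:**
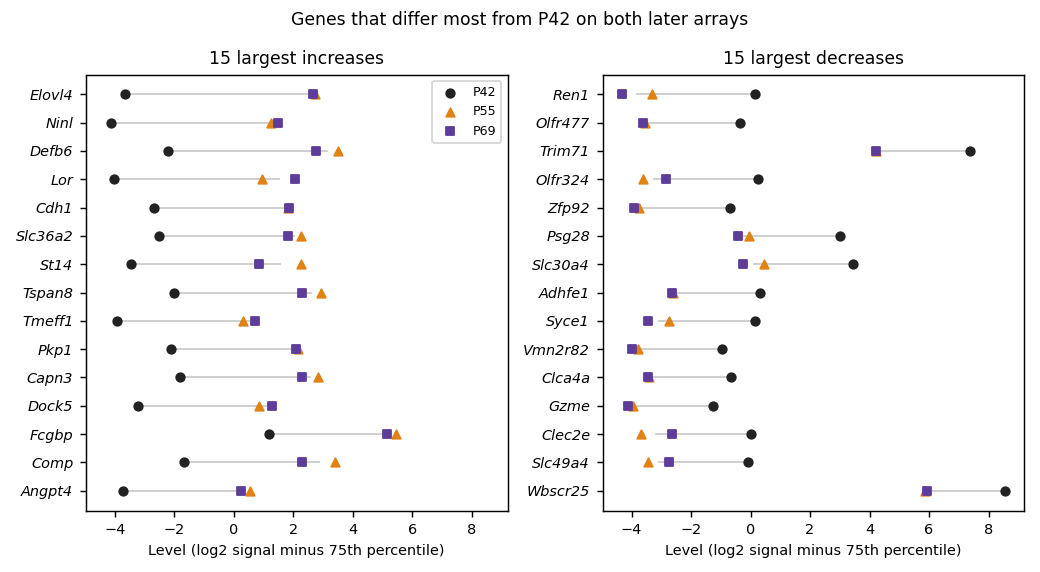
Levels (log2 signal minus the 75th percentile of the array) of the 15 genes with the largest increase (left) and the 15 with the largest decrease (right) at P42 (circles), P55 (triangles) and P69 (squares). Genes are ordered by the smaller of their differences from P42, from Elovl4 and Ren1 at the top. Both later arrays lie on the same side of P42 in all 30 genes, as the way these genes were chosen requires.

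Genes that define keratinocytes, the cells of the epidermis, were higher on both later arrays almost throughout. Of 11 keratinocyte markers, 10 were called higher and none lower, with a median difference of 3.16. Krt5, a keratin of the basal layer, went from 1.58 to 5.55 and 4.91. Krt14, its partner, went from 1.22 to 4.35 and 4.09, and Krt10, a keratin of the suprabasal layers, from -0.06 to 3.23 and 3.15. The remaining marker, Trp63, was not called: its brighter probe read 8.03, 8.04 and 7.35, and its dimmer probe -3.98, -0.83 and 0.06, so its probes disagree. The summed linear level of the 10 markers other than Trp63 was 11.6 at P42, 123.2 at P55 and 94.4 at P69. With the bright Trp63 probe, which dominates the sum, it was 273.1, 386.6 and 257.4. In bulk RNA, more cells of a type and more RNA per cell cannot be told apart, and the part of these transcripts in the other results was not tested.

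Structural genes of the epidermis were higher in larger shares than all genes. Of 18 genes of desmosomes and adherens junctions, which join epithelial cells, 11 were higher and 1 lower, with a median of 2.03. Perp, a desmosomal membrane protein, went from 0.40 to 4.04 and 3.86. The lower gene was Pkp3, another plakophilin, which went from 8.23 to 6.94 and 6.69 and lost this call under other scalings. Of 12 genes of hemidesmosomes and basement membrane adhesion, 5 were higher, among them Col17a1 (-3.27 to -0.02 and 0.66) and Col7a1 (-2.42 to 0.66 and 0.92). Of 16 epidermal proteases and inhibitors, 8 were higher, with Serpinb5, Spint1 and Tmprss13 behind St14. The median of these was 1.56, and -0.07 when dim probes were kept in. Of 12 genes of tight and gap junctions, 5 were higher, among them Cldn1, a claudin of tight junctions, at 1.37, 4.10 and 4.20. Of 20 genes of barrier lipid synthesis, 6 were higher, with Alox12e, Dgat2 and Fa2h next to Elovl4.

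Within these groups some genes did not follow. Of 22 keratins, 10 were higher, among them Krt15 of the follicle bulge (0.63 to 4.54 and 3.98), and Krt40 was lower. Of 20 cornified envelope genes, 7 were higher, led by Lor, Dmkn and Krtdap. Lce1a2, Lce1i and Tgm3 were lower, with Tgm3, an epidermal transglutaminase, going from 5.49 to 3.45 and 3.31. The median of this list was 0.38, close to that of all genes, and it was -0.03 with dim probes kept in and -0.42 over the brighter 0.5 of the probes. Of 18 transcription factors of keratinocytes, 7 were higher (Grhl1, Gata3, Tfap2a and Pou2f3 by most) and 3 lower (Grhl2, Ovol2 and Ehf). Of the lower keratin, cornified envelope and transcription factor genes, only Tgm3 kept its call under every setting of scaling. Of the 7 higher transcription factors, 4 did. Of 21 keratin-associated proteins of the hair shaft, none was higher and 7 were lower, with a median of -1.20 that stayed negative under the other settings of scaling, although none was lower without scaling. These form a family of near-identical genes.

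**Figure D3:**
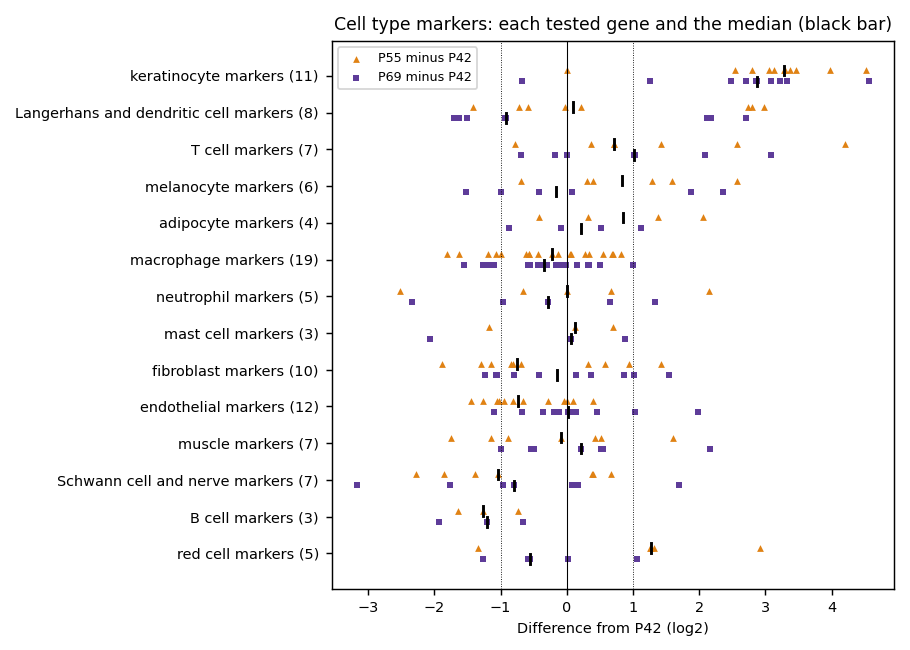
Log2 difference from P42 of every tested marker of 14 cell types, on P55 (triangles) and P69 (squares), with the number of tested markers in brackets and the median as a black bar. Of the 11 keratinocyte markers, 10 stand to the right of 2-fold (dotted) on both arrays, with medians of 3.29 and 2.88. The 19 macrophage markers have a median over both arrays of -0.34, which turned positive with unscaled arrays.

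Of 8 compared Langerhans and dendritic cell markers, which stand for the antigen-presenting cells of epidermis and dermis, 3 were higher and 1 lower. Cd207, which encodes langerin, went from 3.78 to 6.76 and 5.90. Epcam, an adhesion molecule that keratinocytes also express, went from 1.27 to 4.06 and 3.98, and Itgax, which encodes CD11c, from 1.58 to 4.31 and 3.76. Batf3, a transcription factor of conventional dendritic cells, was lower, at 0.64, -0.77 and -0.98, and lost this call under other scalings. Flt3, Xcr1, Cd209a and Ccr7 were not called, and their levels at P69 were below those at P42. The median of the 8 compared genes was -0.60, 0.11 with unscaled arrays and 0.09 on P55 alone. H2-Oa, a regulator of peptide loading on MHC class II, was the only one of 15 class II genes called, at 1.25, 3.95 and 3.47.

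T cell genes were called in part. Cd3e, a chain of the T cell receptor complex, went from -2.76 to 1.44 and 0.32, Cd2 from -2.09 to 0.49 and 0.00, and Thy1 from 1.02 to 2.44 and 2.03. Cd3d, Cd3g, Cd4 and Lck, the other compared markers, were not called. Of 3 compared B cell markers, Pax5 and Cd22 were lower, with Cd22 at 6.40, 4.76 and 4.46. Among 10 fibroblast markers, Col3a1 and Dcn were lower and Thy1 higher. The calls of Pax5, Cd22, Col3a1, Dcn and Thy1 were lost under other scalings. Col1a1, the main chain of dermal collagen, had levels of 3.76, 2.94 and 2.52 and was not called. Pmel and Dct, of the 6 compared melanocyte markers, were higher.

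Enzymes that make lipid mediators and handle cholesterol in macrophages were higher more often than all genes. Of 30 compared, 10 were higher and none lower, a share of 33.3% against 17.7% of all genes, with a median of 0.89. Ptgs1, the cyclooxygenase that starts prostaglandin synthesis, went from 1.15 to 5.49 and 4.66. Ltc4s, which makes leukotriene C4, went from 2.51 to 5.84 and 4.76. Apoc1, an apolipoprotein, went from -0.09 to 3.31 and 2.82, and Nceh1, a cholesterol ester hydrolase, from 1.16 to 4.01 and 3.74. In each of these genes both later arrays were at least 4-fold above P42. Of the 10, 9 kept their call under every setting of scaling. Ptgs1 and Ltc4s are also known from mast cells, whose compared markers differed in direction: Tpsb2, a tryptase, had 1.67, 0.50 and -0.39 and lost its lower call under other scalings, Cma1, a chymase, had -3.74, -3.04 and -2.85, and Hdc, which makes histamine, had -1.86, -1.74 and -1.79. Of 8 compared Langerhans and dendritic cell markers, Cd207, Epcam and Itgax were higher on the same arrays as the lipid genes. Another 4 were below P42 on both arrays, with Batf3 called lower, and the part of these cells was not tested.

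Receptors for debris and dying cells were divided. Of 30 scavenger and efferocytosis genes, 4 were higher and 5 lower, against 17.7% and 8.13% of all genes, and the median of -0.28 turned positive with the arrays scaled to their median or unscaled. Mfge8, which bridges dying cells to phagocytes, went from 4.57 to 7.19 and 6.06. Axl, a receptor tyrosine kinase that recognizes dying cells through a bridging protein, went from 0.08 to 1.95 and 1.64. Cxcl16 and Cd5l were higher too. Marco, a class A scavenger receptor, went from 2.36 to 0.76 and -0.21, and Msr1, another, from 0.16 to -1.46 and -0.92. Cd163, Lrp1 and Tyro3 were the other lower genes. All 4 higher genes kept their call under every scaling, but of the lower ones Marco alone did.

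Chemokines were called in both directions. Of 26 compared, 3 were higher (11.5%) and 5 lower (19.2%), against 17.7% and 8.13% of all genes. Ccl27a, made by keratinocytes, went from 0.56 to 4.59 and 3.03, and Cxcl14, made by epithelia, from -2.71 to 0.82 and 0.17. Ccl2, which attracts monocytes, went from 2.31 to 0.29 and 0.44, and Ccl7, of like function, from 1.97 to 0.32 and 0.56. Ccl5, which attracts T cells, went from 2.30 to 1.05 and 0.67, and Cxcl9, induced by interferon gamma, from 0.61 to -1.06 and -1.33. The median of the list was 0.14 and turned to -0.15 with the 75th percentile of detected probes, and none of the 5 lower genes kept its call under every setting of scaling. The receptor Cxcr3 was lower (-0.04 to -1.41 and -1.41) but kept this call under only 3 of the 5 other settings of scaling, and Cxcr2, the receptor of neutrophil chemokines, was higher (0.10 to 2.25 and 1.44).

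Interferon-stimulated genes were called in both directions. Of 56 compared, 3 were higher (5.36%) and 7 lower (12.5%), against 17.7% and 8.13% of all genes. The median was -0.0039, with either sign under other settings. The lower genes included the guanylate-binding proteins Gbp4 (0.59 to -2.06 and -1.78) and Gbp7 (0.81 to -2.17 and -0.44), and Ifi44l (-0.38 to -2.51 and -4.52). Oas3, an enzyme of the antiviral response, went the other way, from 0.17 to 2.65 and 1.87, as did Ddx58, the RNA sensor RIG-I, and Irf8. Among the lower genes, Gbp4 and Ifi44l kept their call under every setting of scaling.

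Genes that respond within minutes to stimulation or to handling of cells were called in both directions at shares near the background. Of 29 immediate early genes, 4 were higher (13.8%) and 3 lower (10.3%), against 17.7% and 8.13% of all genes. The median of -0.16 was positive with median scaling or none. Jun went from 5.40 to 4.27 and 3.78 and Junb from 6.13 to 4.63 and 4.14, both subunits of the AP-1 factor, and Ier5 was lower too. Egr3 went from 0.35 to 2.22 and 2.05, and Egr2, Btg2 and Nr4a1 were also higher. Only Egr3 kept its call under every setting of scaling.

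**Figure D4:**
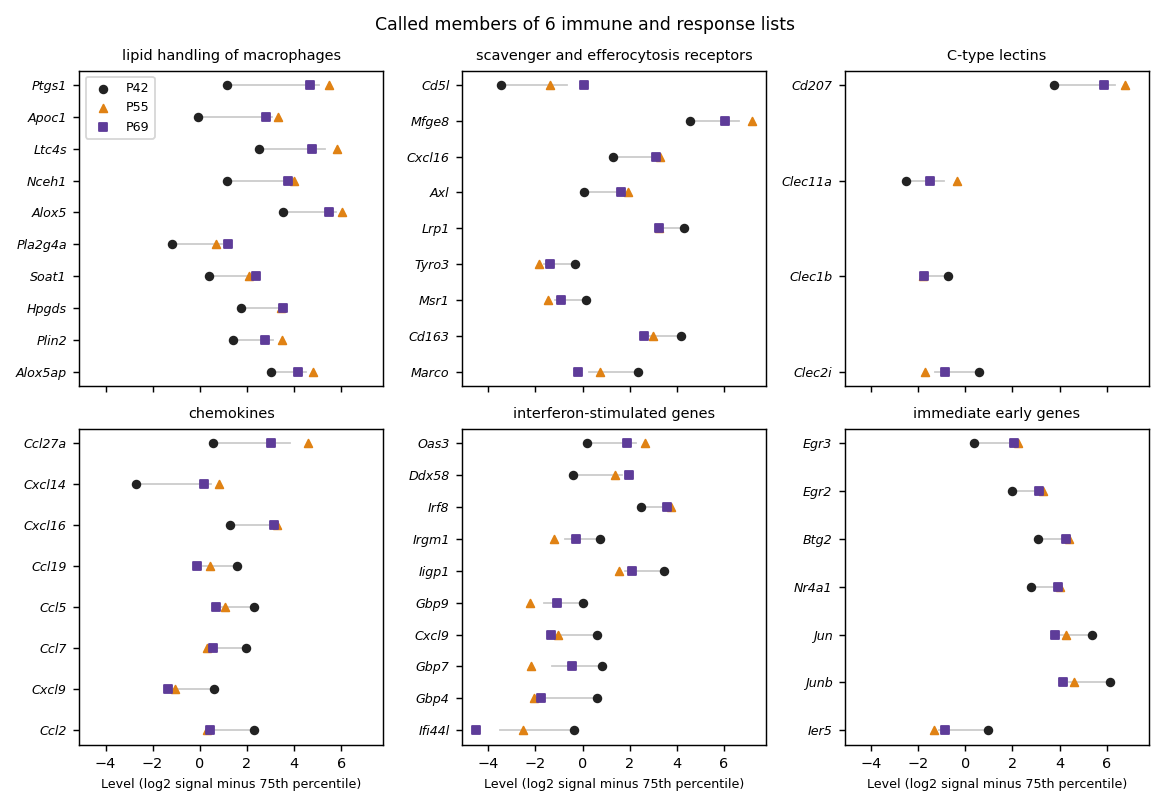
Levels (log2 signal minus the 75th percentile of the array) at P42 (circles), P55 (triangles) and P69 (squares) of the called members of 6 gene lists. All 10 called lipid genes are higher on the later arrays, while the other 5 lists hold both directions, with Ccl2 and Marco lower and Mfge8 and Cd207 higher.

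Cytokines and their receptors were called in both directions at shares near the background. Of 54 interleukins and receptors, 11 were higher (20.4%) and 5 lower (9.26%). Il7r, the receptor for interleukin 7, went from -0.12 to 2.40 and 2.45, Il2rb from -2.91 to -0.23 and 0.54 and Il1r1 from -1.96 to 0.06 and 0.46. Il10, an inhibitory cytokine of macrophages, went from -0.33 to -1.74 and -3.51, and Il24, Il5ra and Lifr were lower as well. None of the lower genes kept its call under every setting of scaling. Of 38 pattern recognition genes, 5 were higher, led by Cd180 (-3.20 to -0.41 and -0.94) and Aim2, a sensor of cytosolic DNA (-3.08 to -0.87 and -0.37), and Casp4 was lower.

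DNA replication and mitosis genes were higher in shares of 38.5% and 45.2%, against 17.7% of all genes. Of 39 DNA replication genes, 15 were higher and none lower, with a median of 1.18. Pola1, the catalytic subunit of DNA polymerase alpha, went from -3.56 to -0.58 and -0.72. Rrm2, a subunit of ribonucleotide reductase, went from -2.24 to 0.40 and 0.06, and Gmnn, which restrains origin licensing, from -0.98 to 1.50 and 1.37. Of 31 mitosis genes, 14 were higher and 3 lower, with a median of 1.10. Cdk1, the kinase that drives entry into mitosis, went from -1.86 to 1.86 and 1.07, and Pttg1, which encodes securin, from -0.44 to 2.38 and 2.11. Hmmr, Sgo1 and Ckap2 were lower. Keratinocyte markers and these genes were higher on the same arrays, and the part of the former was not tested. Of the 15 replication genes 8, and of the 14 mitosis genes 10, kept their call under every setting of scaling.

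Genes of the mitochondrion, the proteasome and the spliceosome were higher in larger shares than all genes. Of 74 subunits of the respiratory chain, 22 were higher and none lower (29.7%), and 66 were above P42 on both arrays at any size, with a median of 1.10. Ndufa4, for example, went from 1.03 to 3.36 and 2.66. Of 69 genes of mitochondrial translation, 24 were higher and 1, Mrps10, lower, with a median of 1.10. Of 38 proteasome subunits, 15 were higher and none lower, with a median of 1.00. Psma1 went from 0.96 to 3.35 and 3.11. Of 39 core splicing genes, 14 were higher and none lower. Of 32 chaperones and heat shock genes, 8 were higher and none lower. Of the 22 respiratory chain genes 12, and of the 15 proteasome genes 9, kept their call under every setting of scaling. Of 78 cytosolic ribosomal proteins only 3 were higher, with a median of 0.47. The later arrays were uneven in both lists. The ribosomal median was 0.91 on P55 and 0.0037 on P69, and that of the respiratory chain 1.49 and 0.67. On P55 alone, 36 ribosomal and 65 respiratory chain genes were at least 2-fold higher, and on P69 alone 4 and 23.

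Genes of metabolism were called in differing directions from list to list, several at shares near the background of 17.7% higher and 8.13% lower. Of 24 cholesterol synthesis genes, 6 were higher (25%) and none lower. Idi1 was at -1.64, 0.57 and 0.55 and Sqle, which makes squalene epoxide, at -1.18, 1.30 and 0.31. Of 21 glycolysis genes, 5 were higher (23.8%), led by Ldhb (-1.67 to 1.90 and 0.83) and Slc2a1, the glucose transporter GLUT1 (0.38 to 3.25 and 2.27). Under every setting of scaling, 3 of the 6 cholesterol and 2 of the 5 glycolysis genes kept their call. Of 59 lysosome genes, 7 were higher, a share of 11.9% that lies under the background of 17.7%. Acp5, an acid phosphatase of macrophages and osteoclasts, went from -0.27 to 2.72 and 2.12. In retinoid metabolism, Aldh1a2, which makes retinoic acid, went from -3.95 to -0.82 and -0.35, while Crabp1, a binding protein, went from 0.49 to -1.48 and -2.00 and Cyp26b1, which breaks retinoic acid down, from 0.84 to -0.95 and -1.15. Of 19 genes of that list, 3 were higher and 3 lower. Of 23 genes of iron and heme handling, 1 was higher and 3 lower, and of 42 cytochromes P450, 7 were higher and 6 lower.

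Promoters of the higher and lower genes and of several gene groups were read for sequence features. RefSeq promoters (GRCm38.p6), from 250 bases before to 50 after the start site, were found for 10448 of the 13094 compared genes. CpG dinucleotides were at a median of 6.83 per 100 bases in the promoters of higher genes, 2.67 in those of lower genes and 6.67 in those of genes without a call. The letters TATAAA, on either strand, were in 6.24% of promoters of higher and 15.3% of lower genes, against 8.62% of those of all compared genes and 14.2% of all 27025 promoters. CCGGAAG was in 19.1% and 6.78%, against 16.7% of compared genes and 9.12% of all promoters, so the higher genes lay near the compared genes. CCAAT was in 23 of 28 mitosis genes (82.1%), against 38.4% of compared genes and 37.9% of all promoters. TTTGGCGC was in 6 of 32 replication genes (18.8%), against 0.938% and 0.537%. A pair of GAAA with any 2 bases between them, as in the interferon-stimulated response element, was in 23 of 43 interferon-stimulated genes (53.5%), against 3.13% and 3.49%. The interferon-stimulated genes were not called in one direction. Matches of different motifs could overlap only at their ends, and a match is a description, not a binding site. The 6 promoters below carry them, with the motif or its reverse complement in capitals, written 5′ to 3′ along the gene. They show 1 member each of the epidermal, mitochondrial, replication, mitosis and interferon groups, and the gene with the largest decrease. Lor lies at chr3:92083093-92083392 (minus strand, TATAAA 27 bases before the start site), Sdhd of the respiratory chain at chr9:50603800-50604099 (minus, CCGGAAG), Pola1 at chrX:93632106-93632405 (minus, TTTGGCGC), Cdk1 at chr10:69352863-69353162 (minus, CCAAT at 3 places), Gbp7 at chr3:142530086-142530385 (plus, the GAAA pair) and Ren1 at chr1:133350424-133350723 (plus, TATAAA 29 bases before the start site).
Lor: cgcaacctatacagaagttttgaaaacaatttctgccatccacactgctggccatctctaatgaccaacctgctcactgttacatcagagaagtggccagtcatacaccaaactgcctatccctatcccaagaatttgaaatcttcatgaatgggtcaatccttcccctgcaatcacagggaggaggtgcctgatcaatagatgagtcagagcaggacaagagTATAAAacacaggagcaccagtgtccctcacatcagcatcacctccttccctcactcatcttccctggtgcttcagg
Sdhd: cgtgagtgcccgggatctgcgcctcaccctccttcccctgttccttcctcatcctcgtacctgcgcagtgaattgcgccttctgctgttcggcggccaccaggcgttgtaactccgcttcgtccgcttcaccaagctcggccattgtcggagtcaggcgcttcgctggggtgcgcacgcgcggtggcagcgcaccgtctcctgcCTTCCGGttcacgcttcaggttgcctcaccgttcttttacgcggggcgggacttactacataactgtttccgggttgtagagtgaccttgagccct
Pola1: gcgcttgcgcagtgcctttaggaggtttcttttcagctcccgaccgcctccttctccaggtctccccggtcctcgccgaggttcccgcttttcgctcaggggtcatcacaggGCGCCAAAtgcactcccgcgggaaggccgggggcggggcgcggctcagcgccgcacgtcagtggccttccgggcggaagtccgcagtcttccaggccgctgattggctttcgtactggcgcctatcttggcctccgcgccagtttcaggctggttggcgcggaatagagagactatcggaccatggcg
Cdk1: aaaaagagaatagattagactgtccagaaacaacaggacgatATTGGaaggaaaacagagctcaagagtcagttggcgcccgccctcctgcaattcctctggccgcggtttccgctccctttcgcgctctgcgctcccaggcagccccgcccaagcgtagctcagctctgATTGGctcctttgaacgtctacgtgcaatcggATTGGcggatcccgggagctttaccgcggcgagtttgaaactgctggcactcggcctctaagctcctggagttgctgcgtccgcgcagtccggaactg
Gbp7: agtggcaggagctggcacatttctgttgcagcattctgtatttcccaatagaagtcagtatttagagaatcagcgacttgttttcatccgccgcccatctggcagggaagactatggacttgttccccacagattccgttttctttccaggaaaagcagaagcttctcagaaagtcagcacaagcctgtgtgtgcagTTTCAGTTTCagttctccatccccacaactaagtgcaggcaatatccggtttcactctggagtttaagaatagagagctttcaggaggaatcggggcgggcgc
Ren1: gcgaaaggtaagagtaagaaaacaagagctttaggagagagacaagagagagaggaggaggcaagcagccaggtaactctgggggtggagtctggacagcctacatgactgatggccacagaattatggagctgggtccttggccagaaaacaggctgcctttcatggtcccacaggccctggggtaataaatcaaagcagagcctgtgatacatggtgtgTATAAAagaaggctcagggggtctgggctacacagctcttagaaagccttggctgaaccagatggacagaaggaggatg
The TATA matches of Lor and Ren1 stand at nearly the same distance from the start site, in a gene that was higher and in one that was lower on both later arrays.

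Of the signalling pathways that act on hair follicles, the Wnt and TGF-beta genes were called higher at shares near the background of 17.7%. Of 32 Wnt pathway components, 6 were higher (18.8%) and 1 lower. Rnf43, a ubiquitin ligase that removes Wnt receptors, went from -2.71 to 1.27 and 0.80, Fzd10, a receptor, from -2.85 to 0.86 and 0.32, and Wls, which carries Wnt proteins to the surface, from -1.62 to -0.03 and 0.58. Apc, of the complex that degrades beta-catenin, went from 0.14 to -0.98 and -1.01. Of 32 TGF-beta and BMP genes, 6 were higher (18.8%) and none lower, with the inhibitor Smad7 at -2.35, 0.55 and 0.56, the secreted antagonist Sostdc1 at -1.67, 0.91 and 1.37 and the target Id2 at 0.50, 2.58 and 2.12. Of 25 Notch genes, 6 were higher (24%), led by the target Nrarp (-1.56 to 0.81 and 0.21) and the ligands Jag2 and Jag1. Notch1 and Hes5 were lower. Of the 6 higher genes of each list, 3 of the Wnt, 4 of the TGF-beta and 1 of the Notch genes kept the call under every setting of scaling, and none of the lower genes did. The medians of 0.09, 0.31 and 0.23 were at or under that of all genes, and those of the Wnt and Notch lists were -0.20 and -0.06 with the 75th percentile of detected probes.

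Matrix genes were called in both directions. Of 24 collagens, 6 were higher and 6 lower, 25% each, against 17.7% and 8.13% of all genes. Of the 6 lower collagens only Col25a1 kept its call under every setting of scaling, and with the arrays scaled to their median 8 collagens were higher and 1 lower. The higher ones were led by Col17a1 and Col7a1 of the epidermal junction and by Col16a1, and the lower ones by Col25a1 (-0.42 to -2.61 and -2.75) and Col4a4. Of 51 other dermal matrix genes, 3 were higher (5.88%) and 2 lower (3.92%), both under the shares of all genes. Of 33 matrix proteases and inhibitors, 5 were higher (15.2%) and 3 lower (9.09%), near those shares. Fn1, which encodes fibronectin, went from 2.16 to 4.10 and 4.31. Mmp9, a gelatinase, went from 0.45 to 4.01 and 3.33, and Mmp14, a membrane protease, from -1.87 to 0.83 and 1.24. Adamts8 went from -0.58 to -2.96 and -2.76, and Plau, a plasminogen activator, from 0.27 to -1.47 and -0.87. Plau lost its lower call under other scalings.

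**Figure D5:**
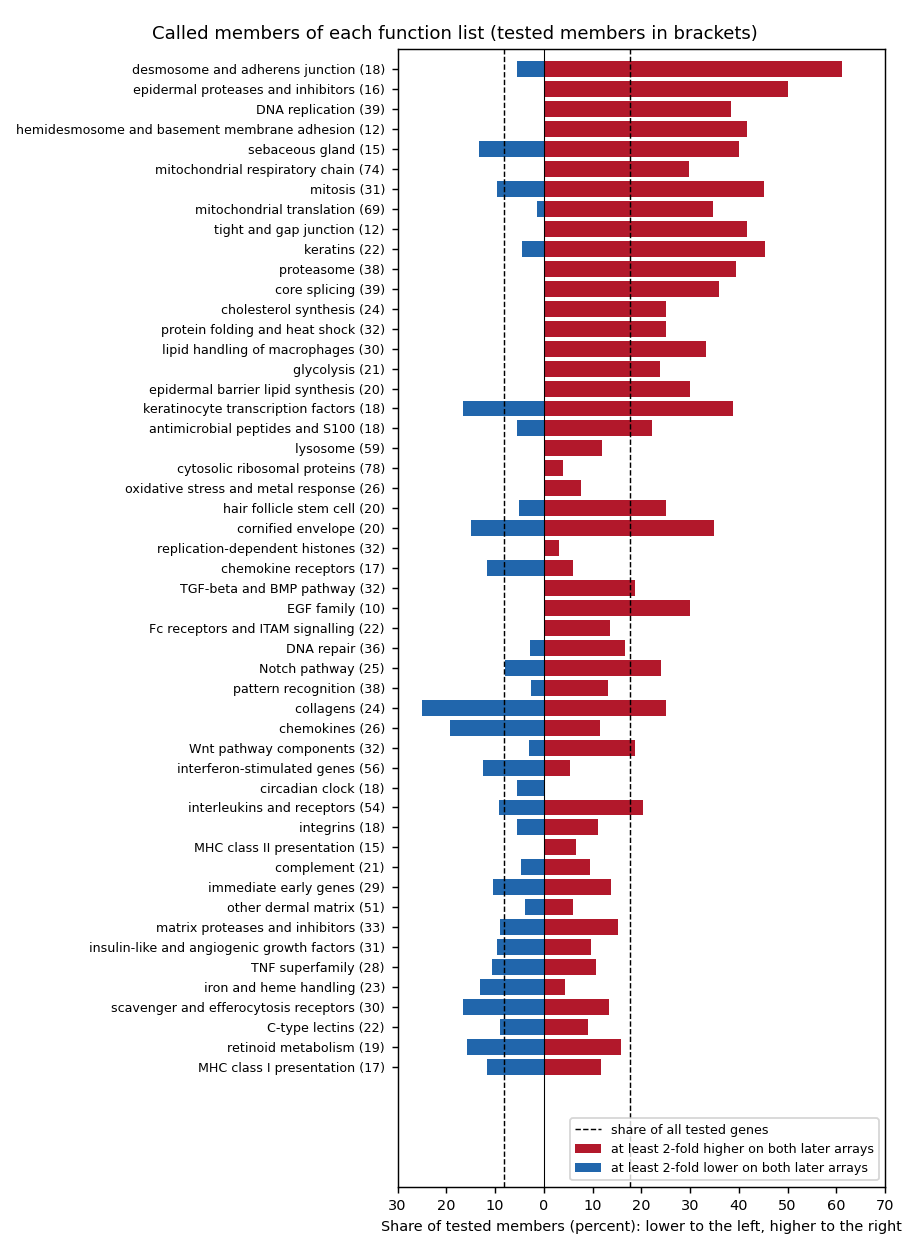
Share of the tested members of each function list with 10 or more of them (number in brackets) that were at least 2-fold higher (red, to the right) or lower (blue, to the left) on both later arrays, in percent. Dashed lines mark the shares of all genes, 17.7% higher and 8.13% lower. Lists are ordered by median difference, from desmosome genes at 2.03 down.

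Sensory receptor families that are not known for a role in macrophages were lower in larger shares than all genes. Of 98 olfactory receptors compared, 44 were lower and 3 higher (44.9% lower), with a median of -1.20. Of 39 vomeronasal receptors, 22 were lower and none higher, with a median of -1.28. Both medians stayed negative under every setting of scaling, and the counts of lower genes fell to 11 and 8 without scaling and to 21 and 7 with the median. Members of these families share sequence, so single probes are uncertain. Without both families, 998 of the 1064 lower genes remained. Gene models without a functional name were lower in 98 of 486. Probes of other kinds went the same way: of the probes named only by genome coordinates, 25.6% were lower and 3.74% higher, against 7.64% and 17.4% of probes for curated mRNAs. With genes split by mean level into 5 bins, 16.2% were lower and 10.04% higher in the dimmest bin, against 4.89% and 13.97% in the brightest. The direction of the difference moved with probe kind and signal, whose part in it was not tested.

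Genes outside the comparison were counted but not ranked. Of 6658 named genes without a probe above background on all arrays, 449 were below it at P42 and above it on both later arrays, and 1007 were above it at P42 only. The mitosis list had 8 of the first kind and 2 of the second, the cornified envelope list 4 and 2, the DNA replication list 4 and 0, and the keratins 2 and 4. Of the olfactory receptors, 3 were of the first kind and 200 of the second. These lists were chosen after the counts were seen.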

How the data were processed

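The authors scanned 3 one-colour arrays with Feature Extraction 10.7.3.1 and deposited each spot's processed signal intensity, linear and background-corrected by the software but not scaled between arrays. They also deposited a log2 table of probes that vary between arrays, centred per probe, whose P55 and P69 columns hold the values of each other's scanner files. Control and outlier spots were left out, and the spots of a probe averaged. The 75th percentile of each array was subtracted from log2 values, and a probe entered the comparison when a share of 0.5 or more of its spots passed the software's well-above-background call on all 3 arrays. Probes were named through RefSeq accessions (GRCm38.p6), which gave 26056 a symbol. A gene was called when its brightest probe differed from P42 by 2-fold or more, in the same direction, on both later arrays. The genes named were the 15 largest increases and decreases (by the smaller difference, all probes agreeing), up to 4 called members per list and direction, members that went against their list, any cell type marker and the genes at the threshold. The 66 gene lists and 10 symbol families, like the comparison itself, were chosen with earlier results of these data known. Alternatives covered scaling, normexp (limma 3.58.1), filters, thresholds, and each later array alone. Python 3.11.15 and pandas 2.3.3 were used. Precision is limited by the number of arrays.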

Additional observations from a re-analysis of the deposited data

Results flagged for a closer look

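Of the 66 gene lists, 3 had medians that lay on opposite sides of P42 on the later arrays, each by more than the spot error of a single difference (0.19). Replication-dependent histones had a median difference of 1.18 at P55 and -0.44 at P69. MHC class II genes had 0.33 and -0.47, and markers of red cells had 1.27 and -0.56. The median gene differed by 0.39 at P55 and 0.28 at P69, so the class II median lay under it on both arrays. Across 15 alternatives, the class II median changed sign under 6, that of the histones under 1 and that of red cells under 2. The difference between the later arrays was not tested in any of the 3 lists.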

How the results depend on the processing

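The 30 genes with the largest changes were chosen for that size, so keeping a call is in large part by construction. They kept their direction under every alternative that measured them, and 30 kept the 2-fold call under all but 2 of these. At 10-fold, 16 did, and 16 also remained over the brighter 0.5 of the probes (chosen after seeing the data), the others being too dim to be included. With the 75th percentile of probes detected on all arrays, 2329 probes were higher, and 1529 genes were higher and 1713 lower. With the median, 7500 probes were higher and 1603 lower, 4566 genes higher and 347 lower, and 63 list medians were above 0 in place of 41. Without scaling these were 8643, 733, 4974, 136 and 64. With normexp, 708 genes were lower. With the looser filter on signal, 7557 probes and 1765 genes were lower, and with no filter 12225 and 2939. At 4-fold, 632 probes were higher and 528 lower, and 435 genes higher and 97 lower. At 10-fold these were 68, 27, 57 and 3. Over the brighter 0.5 of the probes (chosen after seeing the data), 2304 probes were higher and 1451 lower, and 385 genes were lower. Over probes of curated mRNAs (chosen after seeing the data), 1300 probes were lower. Leaving out P69 or P55, so that 1 later array decided the call, gave 4951 to 6975 probes higher and 6681 to 7174 lower, 3076 to 4093 genes higher and 1770 to 1847 lower, 42 to 44 list medians above 0, and the call in all 30 named genes. The difference between these counts is by construction, since 1 array in place of 2 has to pass.

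Of 66 list medians, 26 kept their sign under all alternatives, 24 of them positive. Naming genes through accessions alone was not run, since the files give no other name. No paired analysis was possible because each age has 1 array. Depth does not apply to arrays. Repeated probes that were dim had a spot SD of 0.21 at P42, and bright ones 0.09.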
